A study of Mus musculus with 16 samples.

Results

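Cells sorted from the mouse heart for stem cell antigen 1 (Sca1) were compared with cells sorted from the bone marrow for the receptor tyrosine kinase c-kit, over all 17710 genes that the arrays could name. The comparison used 6 of the 16 arrays of the series: the 3 arrays whose labels name cardiac progenitor Sca1 cells and the 3 whose labels name bone marrow c-kit cells. Heart Sca1 cells were taken as positive for Sca1 and negative for CD45, the pan-leukocyte antigen, and CD31, the endothelial antigen. Marrow c-kit cells were taken by c-kit alone. All mice were C57BL/6 with a genotype labelled Normal, and no treatment, age or sex is given. The labels list Matrigel-coated dishes and mTeSR, a stem cell medium, for every sample, and do not say for how long cells were kept there, how many cells or animals went into a sample, or whether replicates came from separate animals. P-values therefore measure only the spread between samples, which may be technical. That spread was estimated for each gene within the groups of all 16 arrays, so populations outside the comparison also enter the p-values.

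Cardiac Sca1 cells without CD45 and CD31 are known as a stromal population close to fibroblasts, which make and remodel the collagen network of the heart and secrete signals to neighbouring cells. Bone marrow cells with c-kit, the receptor for stem cell factor, are known to hold blood stem cells and, in much larger number, committed progenitors that divide fast and begin to fill granules with antimicrobial proteins. Stromal cells of many organs are also known as sources of the cytokines that act on blood progenitors.

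Values are given on 2 scales. A spot intensity is the scanner reading of a gene's probe on an array, recovered from the deposited log2 value. A level is the log2 value after the arrays were brought to a common scale, and a log2 difference is the mean level in heart Sca1 cells minus the mean level in marrow c-kit cells, given ± its standard error (SE) from limma, a linear model fitted to all genes. Calls needed a Benjamini-Hochberg adjusted p below 0.05 over all 17710 genes. Overlap between groups is judged on levels. Because the arrays differ in brightness, a difference can have another sign than the raw intensities. Levels are not compared between genes, because probes differ in brightness.

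The median spot intensity was 100, 107 and 109 on the heart Sca1 arrays and 64, 94 and 73 on the marrow c-kit arrays. Each array carried a repeated value, its most frequent, here called the fill value. It stood at 7.54% to 9.01% of spots on heart Sca1 arrays and 6.43% to 7.90% on marrow c-kit arrays. The brightest spots stood at 65439 to 65454, near the limit of a 16-bit scanner. Differences that involve the fill value or that limit are uncertain in size. Over all genes, the 9 pairs of arrays across the groups lay 2.53 to 2.73 log2 units apart (root mean square), against 1.49 to 1.55 for pairs within heart Sca1 and 1.35 to 1.42 for pairs within marrow c-kit.

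The sort markers and the leading markers of each cell type were read first. Dcn, which encodes the collagen-binding proteoglycan decorin, gave spot intensities of 55918, 45092 and 55510 on the heart Sca1 arrays, against 14, 13 and 22 on the marrow c-kit arrays (log2 difference 11.01 ± 0.77, adjusted p = 3.91e-07). Mpo, the myeloperoxidase of neutrophil granules, gave 71, 47 and 65 in heart Sca1 cells, against 38631, 65441 and 64501 in marrow c-kit cells, where 2 arrays stood near the scanner limit (-10.41 ± 0.62, adjusted p = 1.29e-07). Kit, the gene of the marrow sort, gave 21, 10 and 145 in heart Sca1 cells, against 927, 4203 and 2350 in marrow c-kit cells (-7.07 ± 0.87, adjusted p = 5.23e-05). The groups did not overlap for any of these 3 genes, as for 43.3% of all genes and 2905 of the 2918 called genes.

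Of the 7 markers listed for heart mesenchymal cells, 6 were higher in heart Sca1 cells (Dcn, Lum, Col1a2, Col3a1, Pdgfra and Tcf21). The exception was Col1a1, the other chain of type I collagen, at 2312, 2564 and 1926 in heart Sca1 cells against 817, 1949 and 877 in marrow c-kit cells, a log2 difference of -0.30 ± 1.01 on the common scale (adjusted p = 0.887). Of the 6 measured marrow progenitor markers, 5 were lower in heart Sca1 cells (Mpo, Elane, Prtn3, Ctsg and Kit). The sixth, Cd34, a surface sialomucin of blood progenitors and of stromal cells, went the other way: 26104, 31855 and 21405 in heart Sca1 cells against 556, 3273 and 1956 in marrow c-kit cells (2.91 ± 0.56, adjusted p = 0.00196). Ly6a, which encodes Sca1, was not analysed here.

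The genes of the antigens used to leave cells out of the heart sort were not alike on the 3 heart arrays. Ptprc, which encodes CD45, gave 146, 61 and 863 in heart Sca1 cells, against 8360, 17389 and 4355 in marrow c-kit cells (-6.70 ± 0.94, adjusted p = 0.000152); its other probe differed by -2.18. Pecam1, which encodes CD31, gave 360, 1306 and 4065 in heart Sca1 cells, against 92, 1361 and 684 in marrow c-kit cells, with overlap (0.60 ± 1.12, adjusted p = 0.784). Replicate 3 of heart Sca1 was the highest of its group for both.

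That replicate stood apart more widely. The mean level of 23 endothelial markers was 1.64, 2.22 and 4.94 on the heart Sca1 arrays, against -0.18, -0.09 and -0.31 on the marrow c-kit arrays. The mean level of 18 macrophage markers was -1.20, -1.18 and 2.03 in heart Sca1 cells, against 1.58, 1.97 and 1.61 in marrow c-kit cells. Cdh5, the endothelial cadherin, gave 7, 329 and 2854 in heart Sca1 cells and at most 11 in marrow c-kit cells. C1qa, a complement chain made by macrophages, gave 9, 8 and 3337 in heart Sca1 cells, against 20, 118 and 58 in marrow c-kit cells. Collagens did not share this pattern, with mean list levels of 4.71, 4.72 and 4.59 in heart Sca1 cells. Counts of a list's called members are therefore also given without replicate 3 where they move by over 1.5 times, which 3 lists did, all in their lower members (macrophage, complement, and adhesion and cytoskeleton). In bulk samples, fewer cells of a type and less RNA per cell cannot be told apart.

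**Figure D1:**
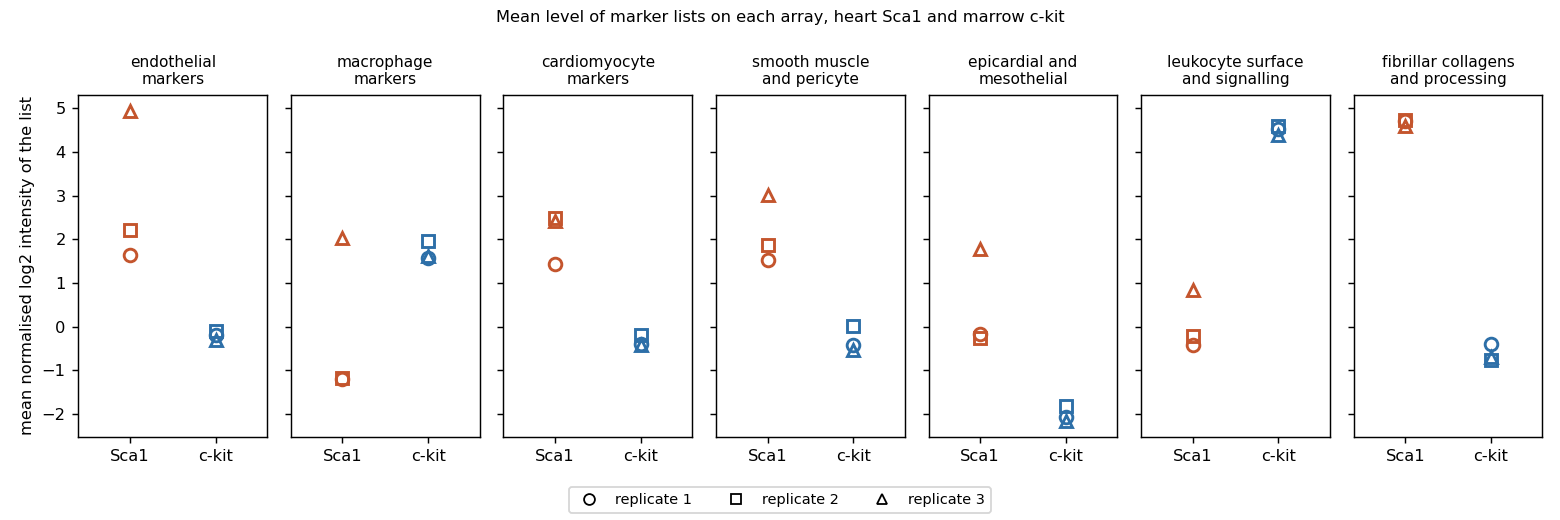
Mean level (normalised log2 intensity, vertical axis) of 7 marker lists on each of the 3 heart Sca1 arrays (orange, left) and 3 marrow c-kit arrays (blue, right); each symbol shape is 1 replicate. Replicate 3 of heart Sca1 stands above the other replicates for endothelial markers (4.94 against 1.64 and 2.22) and macrophage markers (2.03 against -1.20 and -1.18), while the collagen list lies between 4.59 and 4.72 on all 3.

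Across all genes, 2918 of 17710 were called (16.5%), 1774 of them higher (10.0%) and 1144 lower (6.46%) in heart Sca1 cells. Higher genes thus made up 60.8% of calls; with array medians aligned in place of quantile normalisation they made up 71.0% (1591 higher and 651 lower), and with the deposited values unchanged 67.8%. The median log2 difference of all genes was -0.27, and medians aligned moved it by 0.25, to -0.03. The smallest called difference was 1.34 log2 units, a size that depends on the adjusted p cut and the spread between samples. Among called genes, 224 were higher by 8 or more and 38 lower by 8 or more. Without overlap of the arrays were 7666 genes (43.3%), 3419 higher and 4247 lower in heart Sca1 cells. Without replicate 3 of heart Sca1, 2430 genes were called (1488 higher and 942 lower). Counts of called list members below are to be set beside the 10.0% and 6.46% of all genes.

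**Figure D2:**
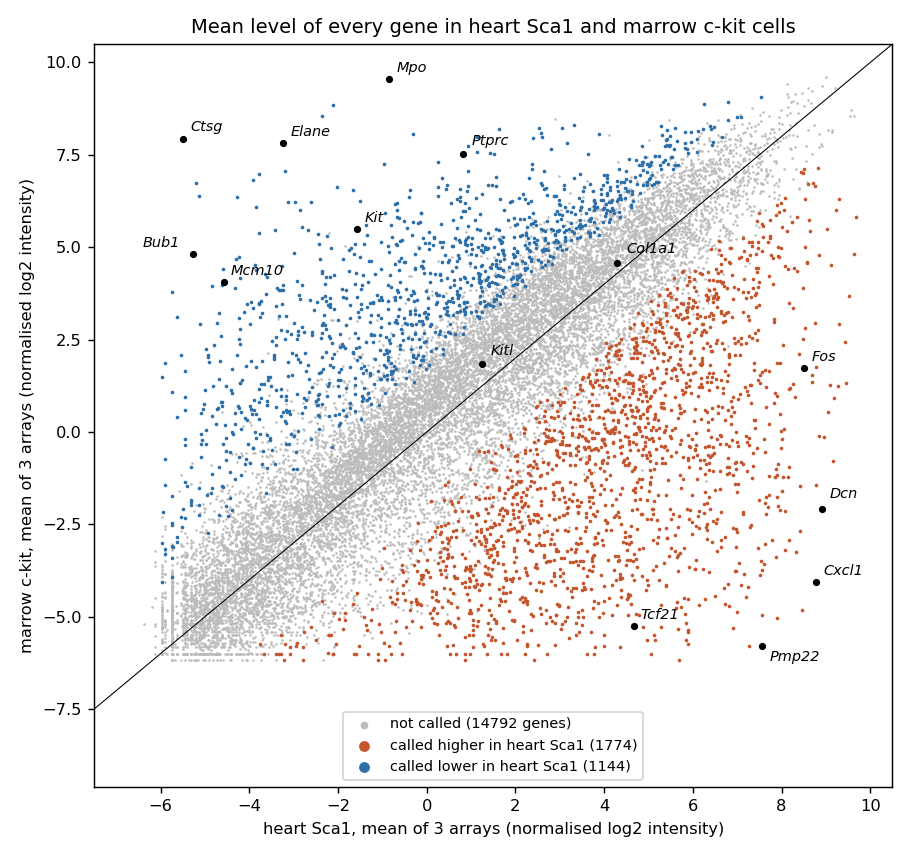
Mean level of each of 17710 genes (normalised log2 intensity, mean of 3 arrays) in heart Sca1 cells (horizontal axis) and marrow c-kit cells (vertical axis), with the line of equal levels; orange genes were called higher and blue genes lower in heart Sca1 cells, and named genes are black. Dcn, Cxcl1 and Pmp22 lie at the lower right and Mpo, Elane and Ctsg at the upper left, while Col1a1 and Kitl lie near the line.

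Extreme genes were ranked among called genes without overlap that were off the fill value on at least 1 array of each group. The 15 highest differed by 11.44 to 13.36 log2 units. On heart Sca1 arrays their spot intensities ran from 5035 to 58161, and on marrow c-kit arrays none passed 21, with 17 of 45 spots at the fill value. Pmp22, a membrane protein first known from myelin, led with 21364, 23199 and 17231 in heart Sca1 cells, against the fill value, 2 and the fill value in marrow c-kit cells (13.36 ± 0.79, adjusted p = 1.27e-07). The set held matrix genes (Col8a1, Mfap5, Col6a3, Lum, Col1a2), secreted binding proteins and signals (Cxcl1, Rarres2, Igfbp5, Fstl1, Dkk3), the LIM-domain gene Fhl1, the prostaglandin synthase gene Ptgs2, and Klhl13. The granin Chgb belonged to it by 1 probe (12.93 ± 1.16, adjusted p = 3.03e-06), while its other probe differed by 1.52.

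The 15 lowest, by the same rule, differed by -13.42 to -9.20 log2 units; Gzmb, a granule protease at the fill value on all 3 heart Sca1 arrays, differed by -9.52 and was left out of the ranking. Ctsg, the granule protease cathepsin G, stood at the fill value, 2 and the fill value in heart Sca1 cells, against 9072, 18052 and 9961 in marrow c-kit cells (-13.42 ± 0.91, adjusted p = 2.93e-07). Neutrophil and basophil granule genes and their regulators filled most of the set (Ctsg, Ms4a3, Elane, Prtn3, S100a9, Gfi1, Mcpt8, Mpo, Ngp, Cebpe). The others were the mitotic kinase gene Bub1, the thromboxane synthase gene Tbxas1, the amino acid transporter gene Slc38a1, the lipid flippase gene Atp8b4, and Syndig1. For Tbxas1 the heart arrays were not alike, with the fill value on replicates 1 and 2 and 507 on replicate 3, against 2481, 4853 and 3406 in marrow c-kit cells.

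**Figure D3:**
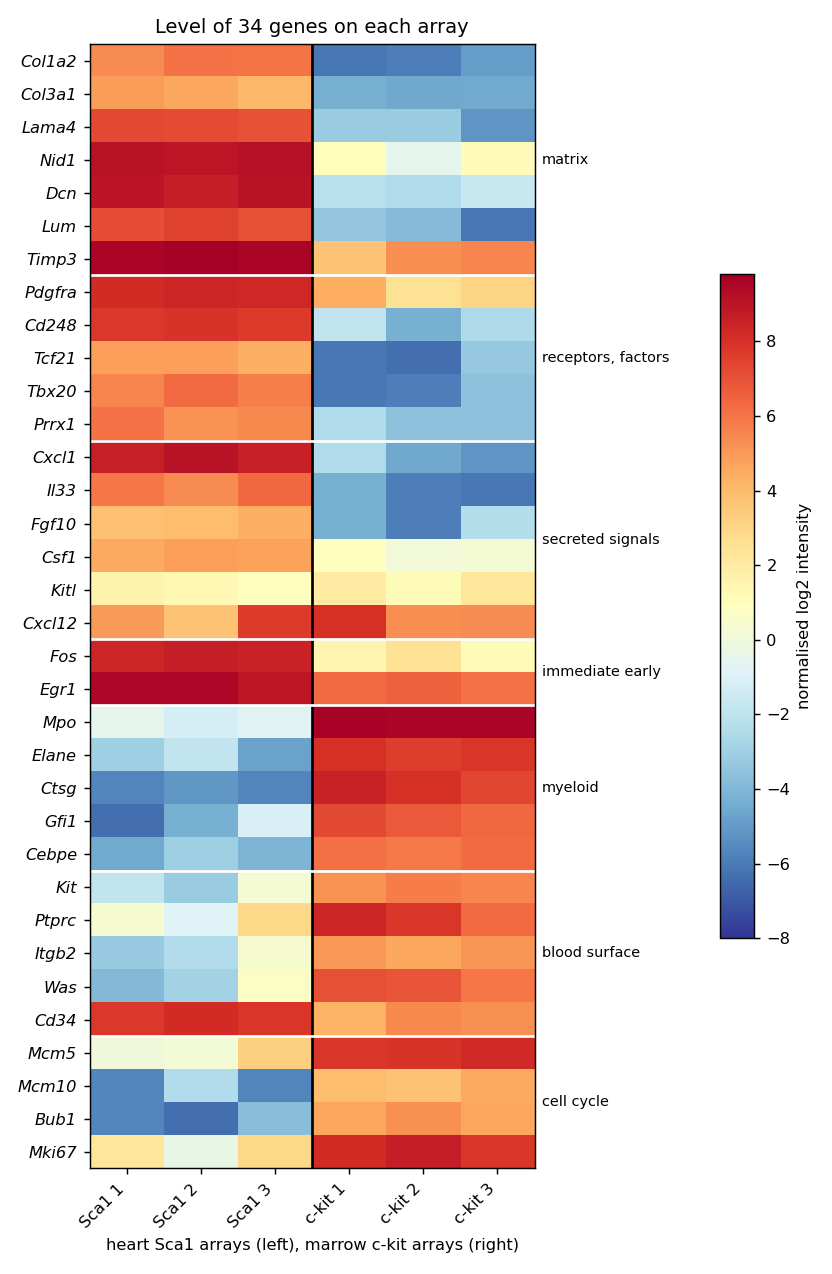
Level (normalised log2 intensity, colour) of 34 genes on the 3 heart Sca1 arrays (left) and the 3 marrow c-kit arrays (right), grouped by role. Matrix genes, receptors and immediate early genes are high on the left and myeloid and cell cycle genes on the right; Kitl, Cxcl12 and Cd34 do not follow their blocks, and Kit, Ptprc, Itgb2 and Was are higher on Sca1 replicate 3 than on the other Sca1 replicates.

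Matrix genes filled 5 lists, and none of their members was called lower in heart Sca1 cells. Of 27 fibrillar collagen and collagen processing genes, 21 were higher (median log2 difference 5.59, against -0.27 for all genes). Col1a2, a chain of type I collagen, gave 5035, 7749 and 6178 in heart Sca1 cells, against the fill value, the fill value and 3 in marrow c-kit cells (11.46 ± 0.96, adjusted p = 1.67e-06). Col3a1, the chain of type III collagen, gave 3620, 2895 and 1755 in heart Sca1 cells and 4 on each marrow c-kit array (8.99 ± 0.68, adjusted p = 7.63e-07). Serpinh1, the collagen chaperone of the endoplasmic reticulum, gave 19693, 12751 and 10279 in heart Sca1 cells, against 18, 16 and 35 in marrow c-kit cells (8.61 ± 0.54, adjusted p = 1.99e-07). The lysyl and prolyl hydroxylases Plod1 (2.12 ± 0.77, adjusted p = 0.0827) and P4ha1 (1.78 ± 0.94, adjusted p = 0.249) were not called.

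Basement membrane genes had the highest median of all 32 lists: 14 of 16 were higher, with a median of 8.23. Nid1, encoding nidogen, which links laminin to type IV collagen, gave 61138, 54259 and 55744 in heart Sca1 cells, against 106, 72 and 135 in marrow c-kit cells (8.51 ± 0.54, adjusted p = 2.11e-07). Hspg2, the heparan sulfate proteoglycan perlecan, gave 21545, 21278 and 15998 in heart Sca1 cells, against 19, 18 and 18 in marrow c-kit cells (9.33 ± 0.46, adjusted p = 5.26e-08). The 2 members not called were Col18a1 (0.99 ± 0.92, adjusted p = 0.538) and the laminin chain Lama5 (-0.26 ± 1.32, adjusted p = 0.924).

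Among small leucine-rich proteoglycans, which bind collagen fibrils, 8 of 11 were higher (median 6.09). Lum, encoding lumican, gave 16078, 19499 and 12808 in heart Sca1 cells, against 7, 6 and the fill value in marrow c-kit cells (11.67 ± 1.55, adjusted p = 9.74e-05). Kera, Chad and Podn were not called, with differences of 0.81, -0.64 and -0.18. Of 30 matricellular and elastic fibre genes, 23 were higher (median 6.25), led by the microfibril genes Mfap5 (11.87 ± 1.08, adjusted p = 3.36e-06) and Mfap4 (11.25 ± 1.66, adjusted p = 0.000244). Postn, encoding periostin, gave 5476, 8822 and 3873 in heart Sca1 cells, against 15, 6 and 6 in marrow c-kit cells (8.98 ± 1.41, adjusted p = 0.000406). Fbln5 was called by 1 probe (10.23), while its other probe differed by -0.34.

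Matrix proteases and their inhibitors were higher for 15 of 18 genes (median 7.47). Adamts1, a protease that cuts proteoglycans, gave 27858, 21823 and 18237 in heart Sca1 cells, against 17, 11 and 24 in marrow c-kit cells (9.73 ± 0.48, adjusted p = 5.26e-08). The serine proteases Htra3 (11.22 ± 0.85) and Htra1 (9.74 ± 0.87) and the inhibitor of complement C1 proteases Serping1 (11.26 ± 1.46) were higher as well. Mmp9, a gelatinase known from leukocytes, was not called, at 180, 173 and 373 in heart Sca1 cells against 184, 274 and 208 in marrow c-kit cells.

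**Figure D4:**
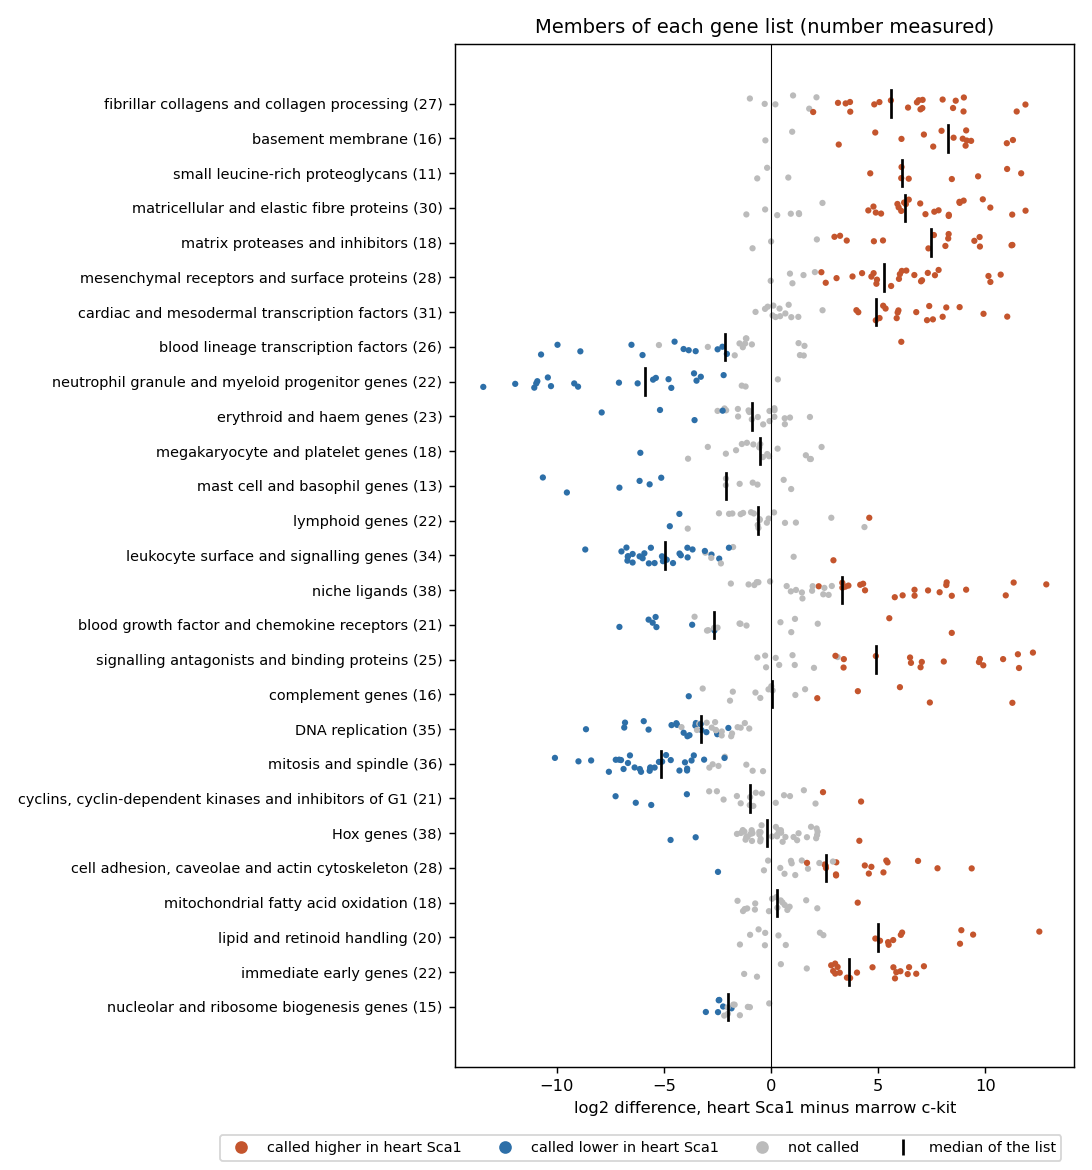
Log2 difference (heart Sca1 minus marrow c-kit, horizontal axis) of every measured member of 27 gene lists; orange members were called higher and blue members lower in heart Sca1 cells, grey members were not called, and the black bar is the list's median. Matrix lists lie to the right with medians of 5.59 to 8.23, granule and mitosis genes to the left with medians of -5.86 and -5.15, and Hox, complement and fatty acid oxidation genes lie around 0.

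Receptors and transcription factors of mesenchymal cells were the next groups. Of 28 receptor and surface genes, 23 were higher and none lower in heart Sca1 cells (median 5.27). Pdgfra, the receptor that marks cardiac fibroblasts, gave 32303, 36617 and 29952 in heart Sca1 cells, against 586, 520 and 452 in marrow c-kit cells (4.91 ± 1.13, adjusted p = 0.00713). Cd248, encoding the stromal antigen endosialin, gave 26214, 26592 and 19310 in heart Sca1 cells, against 16, 5 and 12 in marrow c-kit cells (10.71 ± 1.33, adjusted p = 5.34e-05). The receptor tyrosine kinase Axl was higher by both probes, by 10.23 and 3.04.

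Of 31 cardiac and mesodermal transcription factors, 18 were higher (median 4.89). Tbx20, a T-box factor of the developing heart, gave 5371, 8646 and 5250 in heart Sca1 cells, against the fill value, the fill value and 7 in marrow c-kit cells (11.02 ± 1.34, adjusted p = 4.60e-05). Tcf21, which marks the epicardium and the fibroblasts derived from it, gave 3390, 3290 and 2129 in heart Sca1 cells, against the fill value, 1 and 8 in marrow c-kit cells (9.91 ± 1.56, adjusted p = 0.000426). Prrx1, a homeobox factor of mesenchyme, differed by 8.80 ± 0.99 (adjusted p = 2.21e-05). Other factors of the heart were not called: Gata4, named after its values were seen, differed by -0.28 ± 0.85 (adjusted p = 0.873) and Tbx5 by 1.27 ± 0.87 (adjusted p = 0.381). For Tbx18 the 2 probes disagreed, at 0.95 (not called) and 7.79.

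Genes of blood cells were described next, beginning with the granule proteins. Of 22 neutrophil granule and myeloid progenitor genes, 19 were lower in heart Sca1 cells and none higher (median -5.86). Elane, encoding neutrophil elastase, gave 9, 25 and 2 in heart Sca1 cells, against 6175, 14668 and 14112 in marrow c-kit cells (-11.04 ± 0.84, adjusted p = 7.99e-07). Prtn3, encoding proteinase 3, gave 10, 24 and 27 in heart Sca1 cells, against 14245, 24665 and 25967 in marrow c-kit cells (-10.95 ± 1.15, adjusted p = 1.28e-05). S100a9 gave 9, 13 and 46 in heart Sca1 cells, against 17362, 23691 and 14847 in marrow c-kit cells (-10.90 ± 0.78, adjusted p = 4.82e-07). Its protein forms a dimer with that of S100a8, whose probe stayed at or below 8 on all 6 arrays (0.32 ± 1.01, adjusted p = 0.879).

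The promoters of the azurophil granule genes Mpo, Elane, Prtn3 and Ctsg are shown. These 4 are part of the granule genes among the 15 genes with the lowest log2 differences described above. Each sequence is the 250 bases before the gene's start in RefSeq (GRCm38.p6), read 5′ to 3′ in the direction of the gene. Capitals mark GAGGAA, the core that the blood factor PU.1 is known to bind, searched on both strands.
Mpo (chr11:87793534-87793783, plus strand): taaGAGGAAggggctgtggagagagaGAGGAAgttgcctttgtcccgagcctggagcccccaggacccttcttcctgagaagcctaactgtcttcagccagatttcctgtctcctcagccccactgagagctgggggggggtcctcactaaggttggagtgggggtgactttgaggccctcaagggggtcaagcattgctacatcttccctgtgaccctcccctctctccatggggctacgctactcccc
Elane (chr10:79886062-79886311, plus strand): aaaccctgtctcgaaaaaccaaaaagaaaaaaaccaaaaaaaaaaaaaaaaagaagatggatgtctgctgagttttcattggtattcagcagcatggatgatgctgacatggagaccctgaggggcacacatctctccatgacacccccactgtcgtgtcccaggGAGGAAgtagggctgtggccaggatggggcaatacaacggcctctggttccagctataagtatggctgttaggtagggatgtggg
Prtn3 (chr10:79879417-79879666, plus strand): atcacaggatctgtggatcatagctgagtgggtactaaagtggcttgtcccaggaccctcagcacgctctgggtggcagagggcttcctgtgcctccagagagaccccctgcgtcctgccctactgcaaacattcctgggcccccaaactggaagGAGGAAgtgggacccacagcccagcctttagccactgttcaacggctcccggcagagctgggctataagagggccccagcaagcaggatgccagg
Ctsg (chr14:56102575-56102824, minus strand): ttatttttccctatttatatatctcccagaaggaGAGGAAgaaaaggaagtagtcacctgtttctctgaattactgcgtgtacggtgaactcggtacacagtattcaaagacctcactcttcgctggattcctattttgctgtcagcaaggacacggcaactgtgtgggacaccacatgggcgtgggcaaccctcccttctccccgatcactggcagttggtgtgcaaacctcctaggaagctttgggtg
All 4 windows held the core, in the orientation of the gene. It began 85 bases before the start in Elane, 95 in Prtn3 and 216 in Ctsg, and in Mpo at both 247 and 224. The windows of Ms4a3, Ngp and S100a9, also among the 15 lowest, held no GAGGAA on either strand. That of S100a8, which was not called, did hold it. Of the 19 measured granule genes with a window, 9 held GAGGAA on either strand (47.4%, against 25.9% of 27025 genes), and 5 held the longer GAGGAAGT that contains it (26.3% against 2.79%). The motif TTGCNNAA of C/EBP factors was in 6 of the 19 windows (31.6% against 10.8%), and in none of the 4 shown. A match is a description of letters and not a binding site. Spi1, the gene of PU.1, gave 1260, 713 and 1435 in heart Sca1 cells, against 136, 276 and 298 in marrow c-kit cells (1.35 ± 0.65, adjusted p = 0.205); it was named after its values were seen.

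Of 26 blood transcription factors, 12 were lower and 1 was higher in heart Sca1 cells (median -2.16); with medians aligned, 7 were lower. Gfi1, a repressor needed for neutrophil development, gave 1, 5 and 55 in heart Sca1 cells, against 3678, 8228 and 4717 in marrow c-kit cells (-10.73 ± 1.23, adjusted p = 2.76e-05). Cebpe, a factor of late granule formation, differed by -9.96 ± 1.15 (adjusted p = 2.89e-05), Nfe2 by -8.89 ± 0.64 (adjusted p = 5.18e-07) and Ikzf1, a factor of lymphoid and other blood lineages, by -6.51 ± 1.04 (adjusted p = 0.000489). The one higher member was Mecom, a factor of blood stem cells, at 10012, 7444 and 9010 in heart Sca1 cells against 71, 194 and 63 in marrow c-kit cells (6.08 ± 0.63, adjusted p = 1.15e-05); its other probe differed by -0.26. Gata2, a factor of blood stem cells and endothelium, gave 8, 91 and 857 in heart Sca1 cells, against 664, 2381 and 2427 in marrow c-kit cells, and was not called (-5.23 ± 1.94, adjusted p = 0.0890).

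Leukocyte surface and signalling genes were lower for 28 of 34 members (median -4.92), and Cd34 was the 1 higher member. The 28 include Ptprc, whose protein CD45 was used to leave cells out of the heart sort. Was, an actin regulator of blood cells, gave 5, 12 and 192 in heart Sca1 cells, against 3081, 8967 and 3389 in marrow c-kit cells (-8.66 ± 1.15, adjusted p = 9.73e-05). Itgb2, the beta chain of the leukocyte integrins, gave 8, 17 and 152 in heart Sca1 cells, against 852, 1898 and 1763 in marrow c-kit cells (-6.68 ± 0.83, adjusted p = 5.65e-05). The probes of Selplg, a selectin ligand, disagreed, at -6.74 and 1.57.

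Other marrow lineages were read from 4 further lists, to be set beside the 16.5% of all genes that were called, 10.0% higher and 6.46% lower. Of 13 mast cell and basophil genes, 6 were lower, and these include Kit, the gene of the marrow sort. Mcpt8, a basophil protease, was another, at 10, 5 and the fill value in heart Sca1 cells against 2050, 6594 and 4208 in marrow c-kit cells (-10.64 ± 0.82, adjusted p = 8.23e-07). The mast cell proteases Tpsab1 and Cma1 gave at most 52 on any of the 6 arrays. Of 23 erythroid and haem genes, 4 were lower (17.4%, against 6.46% of all genes called lower) and none was higher. The 4 were Car2, Tfrc, Car1 and Slc25a37, the last of which was lost in 7 of 18 alternative settings. Tfrc, the transferrin receptor, gave 1168, 585 and 1436 in heart Sca1 cells, against 7207, 23365 and 16793 in marrow c-kit cells (-5.18 ± 0.68, adjusted p = 9.44e-05). Of 18 megakaryocyte genes only Rgs18 was lower (-6.10 ± 1.03, adjusted p = 0.000743), although up to 4 were lower in fits of the 6 arrays alone.

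Of 22 lymphoid genes, 13.6% were called in either direction, near the 16.5% of all genes. Cd79b (-4.72 ± 0.99, adjusted p = 0.00396) and Il7r (-4.27 ± 0.82, adjusted p = 0.00207) were lower. Ebf1, a factor known from B cells and also from stromal and fat precursors, was higher, at 2992, 5119 and 2781 in heart Sca1 cells against 80, 105 and 108 in marrow c-kit cells (4.58 ± 0.72, adjusted p = 0.000409).

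Secreted signals that stromal cells are known to give to blood and heart cells were higher for 21 of 38 ligands, and none was lower (median 3.33). Cxcl1, a chemokine that attracts neutrophils, gave 45289, 58161 and 38786 in heart Sca1 cells, against 12, 4 and 2 in marrow c-kit cells (12.84 ± 0.69, adjusted p = 1.02e-07). Il33, an alarmin of stromal cells, gave 7312, 4812 and 7792 in heart Sca1 cells, against 4, the fill value and the fill value in marrow c-kit cells (11.31 ± 1.78, adjusted p = 0.000409). Tgfb3 differed by 8.43 ± 0.78 (adjusted p = 3.77e-06) and Fgf2 by 9.10 ± 1.82 (adjusted p = 0.00273). Tgfb2 was higher by 10.95 with 1 probe and by 2.83 with the other.

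Pairs of ligand and receptor did not follow a single pattern. Kitl, the ligand of c-kit, gave 349, 287 and 223 in heart Sca1 cells, against 178, 209 and 271 in marrow c-kit cells, with overlap (-0.59 ± 0.58, adjusted p = 0.569), while Kit itself was lower in heart Sca1 cells. Cxcl12, the chemokine that holds blood stem cells in the marrow, gave 3764, 1606 and 19263 in heart Sca1 cells, against 6034, 3016 and 2115 in marrow c-kit cells (-0.78 ± 1.04, adjusted p = 0.689). Its receptor gene Cxcr4 gave 20, 826 and 1484 in heart Sca1 cells, against 4703, 7647 and 4624 in marrow c-kit cells (-5.34 ± 1.19, adjusted p = 0.00573, lost in 1 of 18 alternative settings at 0.0604). Neither ligand was called, and both receptors were.

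Csf1, the macrophage growth factor, was higher in heart Sca1 cells (2834, 3233 and 2733 against 101, 103 and 85 in marrow c-kit cells; 4.30 ± 0.46, adjusted p = 1.49e-05). Its receptor gene Csf1r gave 43, the fill value and 673 in heart Sca1 cells, against 176, 953 and 114 in marrow c-kit cells (-3.57 ± 1.74, adjusted p = 0.210). Tek, the receptor of angiopoietins and known from endothelium, gave 8901, 7068 and 8779 in heart Sca1 cells, against 11, 28 and 12 in marrow c-kit cells (8.43 ± 0.68, adjusted p = 1.18e-06), and its ligand Angpt1 was not called (0.73 ± 0.67, adjusted p = 0.535). Unlike Cdh5, Tek was about as high on each of the 3 heart arrays.

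Vcam1, an adhesion molecule of stroma, gave 40877, 43335 and 35934 in heart Sca1 cells, against 1343, 7856 and 4958 in marrow c-kit cells (2.22 ± 0.66, adjusted p = 0.0323). That call was lost in 8 of 18 alternative settings, with an adjusted p of up to 0.135. Itga4, a chain of the integrin that binds it, was lower at 3, 14 and 4 in heart Sca1 cells against 211, 330 and 64 in marrow c-kit cells (-5.04 ± 0.94, adjusted p = 0.00158). Igf1 was higher (6.69 ± 1.88, adjusted p = 0.0238, lost in 5 of 18 settings), and Igf1r was not called (-0.56 ± 1.10, adjusted p = 0.795). Hgf stood at the fill value on all 3 marrow c-kit arrays and at 5, 7 and 13 in heart Sca1 cells (adjusted p = 0.0875), and its receptor gene Met was lower (-4.58 ± 1.25, adjusted p = 0.0205, lost in 3 of 18 settings).

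Among 21 receptors for blood growth factors and chemokines, 7 were lower and Tek and S1pr1 were higher in heart Sca1 cells (median -2.64). The 7 include Kit, the gene of the marrow sort. Antagonists and binding proteins of growth factors were higher for 16 of 25 genes, with none lower (median 4.89). Sfrp2, which binds Wnt ligands, gave 43643, 39381 and 29294 in heart Sca1 cells, against 38, 19 and 17 in marrow c-kit cells (9.90 ± 1.39, adjusted p = 0.000155). Igfbp5, which binds insulin-like growth factors, gave 11146, 12610 and 15719 in heart Sca1 cells, against 2, 3 and the fill value in marrow c-kit cells (12.21 ± 0.82, adjusted p = 2.80e-07). Of 16 complement genes 5 were higher and Cfp was lower (its call was lost in 3 of 18 settings); without replicate 3 of heart Sca1, 4 were higher and 2 lower. Mean list levels were 1.01, 0.84 and 2.5 in heart Sca1 cells, against 0.20, 0.38 and -0.28 in marrow c-kit cells, and the list's median of 0.04 took the opposite sign under 4 settings.

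Genes of cell division came in a replication list and a mitosis list, and none was called higher in heart Sca1 cells. All 35 measured DNA replication genes had a negative log2 difference and 19 were called lower (median -3.24). This number was 8 after aligning medians and 9 on the values as deposited. It was 28 in a fit of the 6 arrays alone and 29 when arrays were weighted. All 36 mitosis and spindle genes had a negative difference, and 29 were called lower (median -5.15), with 25 to 33 called under the alternatives. Mcm10, which helps to start replication forks, stood at the fill value, 17 and the fill value in heart Sca1 cells, against 460, 1058 and 1148 in marrow c-kit cells (-8.63 ± 0.79, adjusted p = 3.36e-06). Mcm5, a subunit of the replicative helicase, gave 107, 131 and 1017 in heart Sca1 cells, against 5209, 17763 and 18388 in marrow c-kit cells (-6.85 ± 0.95, adjusted p = 0.000135). Bub1, a kinase of the spindle checkpoint, stood at the fill value, 1 and 5 in heart Sca1 cells, against 672, 2878 and 1199 in marrow c-kit cells (-10.08 ± 0.89, adjusted p = 2.47e-06). Ccna2, encoding cyclin A2, gave 1, the fill value and 83 in heart Sca1 cells, against 522, 2213 and 1900 in marrow c-kit cells (-8.98 ± 1.23, adjusted p = 0.000123).

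Among 21 genes of the G1 phase, E2f1, E2f2, E2f8 and Cdk6 were lower and 2 inhibitors of cyclin-dependent kinases were higher, Cdkn1c and Cdkn1a (median of the list -0.98). Cdkn1c, encoding p57, gave 8649, 5367 and 10919 in heart Sca1 cells, against 241, 172 and 313 in marrow c-kit cells (4.20 ± 0.68, adjusted p = 0.000556). The transcription factors of the E2F family are known to act on genes of replication. Promoters of 2 helicase genes that were lower in heart Sca1 cells and held a match to the E2F motif TTTGGCGC are shown, read as above, with the match in capitals on either strand.
Mcm5 (chr8:75109259-75109508, plus strand): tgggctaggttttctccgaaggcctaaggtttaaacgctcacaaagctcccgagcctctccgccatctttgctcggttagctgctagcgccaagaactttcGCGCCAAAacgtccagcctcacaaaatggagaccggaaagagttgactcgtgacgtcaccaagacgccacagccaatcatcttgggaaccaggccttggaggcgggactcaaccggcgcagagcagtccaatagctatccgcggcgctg
Mcm6 (chr1:128359706-128359955, minus strand): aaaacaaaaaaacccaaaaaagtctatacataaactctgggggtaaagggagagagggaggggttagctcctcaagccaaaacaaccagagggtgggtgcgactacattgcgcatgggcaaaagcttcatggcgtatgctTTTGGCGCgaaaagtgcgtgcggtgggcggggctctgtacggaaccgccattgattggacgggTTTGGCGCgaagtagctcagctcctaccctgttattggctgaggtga
The match lay 149 to 142 bases before the start of Mcm5, on the opposite strand, and Mcm6 held 2, at 110 to 103 and 47 to 40. Of 28 replication genes with a window, 3 held TTTGGCGC (10.7%, against 0.485% of all 27025 genes) and another 3 held TTTCCCGC (10.7% against 1.03%). Of these 6 genes, Mcm5, Mcm6, Mcm7 and Cdc6 were called lower and Gins3 and Pola1 were not. Mcm6 was the less changed of the pair shown, at 4636, 5465 and 4747 in heart Sca1 cells against 9046, 16502 and 13606 in marrow c-kit cells (-2.51 ± 0.58, adjusted p = 0.00709); it was named for its motif.

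Ribosome biogenesis genes of the nucleolus were lower for 6 of 15 members (median -2.01), led by Bop1 (-3.04 ± 0.60, adjusted p = 0.00262, lost in 2 of 18 settings). This count was 0 after aligning medians or on the values as deposited, 10 when arrays were weighted, and 3 without replicate 2 of either group. Mean list levels were 3.35, 2.88 and 2.76 in heart Sca1 cells, against 4.87, 4.88 and 4.79 in marrow c-kit cells.

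Immediate early genes, which cells switch on within minutes of a stimulus, were higher in heart Sca1 cells for 18 of 22 members and lower for none (median 3.61). Fos gave 37626, 44125 and 35469 in heart Sca1 cells, against 136, 511 and 138 in marrow c-kit cells (6.77 ± 0.77, adjusted p = 2.45e-05). Atf3, a stress-induced factor, gave 3431, 2715 and 2227 in heart Sca1 cells, against 16, 10 and 11 in marrow c-kit cells (7.13 ± 0.50, adjusted p = 3.76e-07). Nr4a1, a nuclear receptor of the same early wave, gave 63177, 65450 and 53786 in heart Sca1 cells, with 2 arrays near the scanner limit, against 258, 473 and 612 in marrow c-kit cells (6.37 ± 0.52, adjusted p = 1.19e-06). The groups did not overlap for any of the 3, as for 43.3% of all genes. The labels give no account of how long tissue was digested or cells were sorted, and the part of such handling in these genes was not tested.

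Structural genes of the membrane and cytoskeleton were higher for 16 of 28 members, and Lgals3 was the 1 lower member (median 2.56). No member was lower when any 1 of the 6 arrays, replicate 3 of heart Sca1 included, was left out. Cav1, the coat protein of caveolae, gave 1466, 1529 and 5971 in heart Sca1 cells, against 10, 17 and 12 in marrow c-kit cells (6.86 ± 0.73, adjusted p = 1.48e-05). Lipid and retinoid genes were higher for 11 of 20 members (median 4.97), among them the retinaldehyde dehydrogenase gene Aldh1a1, at 18278, 27764 and 20193 in heart Sca1 cells against 13, 30 and 21 in marrow c-kit cells (9.42 ± 1.26, adjusted p = 0.000103). The fatty acid oxidation list of 18 genes gave 1 call (5.56%, against 16.5% of all genes), with a list median of 0.27. The call was the lipoprotein lipase gene Lpl (4.04 ± 0.48, adjusted p = 3.52e-05), which does not encode an oxidation enzyme. No oxidation enzyme of the list was called. For the fatty acid transporter Cd36, the 2 probes disagreed, at -1.56 (not called) and 4.17.

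Hox genes are known to keep the position of a cell's origin along the body axis. Of this list 7.89% were called, against 16.5% of all genes. Of 38 Hox genes and their cofactors, Hoxd8 was higher (4.12 ± 0.76, adjusted p = 0.00158), and Hoxa7 (-4.69 ± 1.07, adjusted p = 0.00703) and Hoxa9 (-3.51 ± 0.88, adjusted p = 0.0124, lost in 3 of 17 settings) were lower in heart Sca1 cells. Hoxa7 gave 21, 83 and 64 in heart Sca1 cells, against 212, 986 and 1617 in marrow c-kit cells. The list's median of -0.20 turned positive under 2 settings.

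Markers of other cell types that a heart sort could hold were counted in the same way, beside 10.0% of all genes called higher and 6.46% lower. Of 23 endothelial markers 9 were higher and none lower in heart Sca1 cells (median 2.55), and without replicate 3 these values were 7 and 0.79. Tek, Ramp2 and Sox7 were high on all 3 heart arrays, while Cdh5, Emcn and Robo4 were not called and highest on replicate 3. Of 18 macrophage markers 4 were lower (median -1.37), and 7 were lower without replicate 3 (median -2.37); Mrc1, a scavenger receptor, gave 25, 6 and 671 in heart Sca1 cells, against 516, 1827 and 1118 in marrow c-kit cells. The part of these cell types in the other results was not tested.

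Of 14 cardiomyocyte markers 7 were higher (median 2.06), and 4 without replicate 2 of heart Sca1. Tnnt2, the cardiac troponin T gene, gave 1942, 3165 and 2117 in heart Sca1 cells, against the fill value, 11 and 9 in marrow c-kit cells (8.34 ± 0.99, adjusted p = 3.56e-05). Ttn, the giant spring of the sarcomere, was not called (-1.50 ± 1.00, adjusted p = 0.370), and Mb, encoding myoglobin, was called by 1 probe (4.78, lost in 5 of 18 settings) while the other differed by -1.92. Of 12 smooth muscle and pericyte markers 6 were higher (median 2.87), led by the intermediate filament gene Des (6.27 ± 0.57, adjusted p = 3.36e-06). Their mean level was 1.52, 1.86 and 3.01 in heart Sca1 cells, against -0.43, 0.01 and -0.53 in marrow c-kit cells. Of 14 epicardial and mesothelial markers 5 were higher (median 1.48): Tcf21, Wt1, Sema3d, Aldh1a2 and Upk3b, the last lost in 6 of 18 settings. None was called lower, but Dmkn differed by -7.92 to -4.94 under the alternative settings and was called lower in 10 of 18. The mean level of the 14 markers was -0.17, -0.26 and 1.77 in heart Sca1 cells, against -2.06, -1.82 and -2.16 in marrow c-kit cells. Replicate 3 was thus the highest heart array for both lists. Wt1 gave 918, 371 and 3997 in heart Sca1 cells, highest again on replicate 3, against the fill value, 10 and 6 in marrow c-kit cells (7.55 ± 1.10, adjusted p = 0.000215).

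The extreme genes were also read in the 4 other populations of the series, whose arrays shared the normalisation and the estimate of spread behind the calls. The 15 highest genes had a median level of 7.24 in heart Sca1 cells and -4.96 in marrow c-kit cells, and stood at 7.45 in heart side population cells, 5.77 in cardiomyocytes, 2.95 in marrow mesenchymal stem cells and 1.33 in heart c-kit cells. The 15 lowest genes had a median level of -3.78 in heart Sca1 cells and 6.82 in marrow c-kit cells, against -1.55 in marrow mesenchymal stem cells, -2.20 in cardiomyocytes, -2.31 in heart c-kit cells and -2.84 in heart side population cells. For Mpo, every other group had a mean level of 1.10 or less, against 9.56 in marrow c-kit cells. Several of the lowest genes were also well up elsewhere: Tbxas1 (5.28), Mcpt8 (5.11), Atp8b4 (4.40), Slc38a1 (3.59) and Bub1 (3.26) in mean level in marrow mesenchymal stem cells, and S100a9 (3.82) in cardiomyocytes. These medians are a description with no test.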

How the data were processed

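Per the labels' protocols, RNA was amplified with the WT-Ovation Pico system, and the cDNA carried Cy5, the only channel read from a 2-colour array. The authors' deposited table holds log2 values centred per array; raised back, 100% of spots under 200 were whole numbers within 0.005. How background was treated, and when a spot received the fill value, is not given in the sources used here. All 26423 probes of the 16 arrays were quantile normalised. The platform's symbol matched a current RefSeq symbol (GRCm38.p6, names and promoters only) for 18213 probes and an unambiguous synonym for 2126, giving 17710 genes; 2273 genes had several probes, and the one with the highest mean was used. A model of 6 group means was fitted with limma 3.58.1 (R 4.3.3; prior degrees of freedom 3.81), with Benjamini-Hochberg adjustment. The number of arrays limits the precision. Tables and figures used Python 3.11.15, pandas 2.3.3 and matplotlib 3.10.9. The procedure was tested on simulated data. It missed nearly all true differences of 1 or 2 log2 units, most of those of 4 and some of those of 6. The simulation changed only 200 of 17710 genes, against 2918 called in the data, which makes its adjusted p cut stricter. How many differences were missed in the data cannot be read from it. A gene that was not called is still not shown to be equal.

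The members and the 32 gene lists were chosen with earlier results of these data known, so lists get counts and medians and no test. Named by rule were the markers used in sorting, then 15 called genes at each extreme that did not overlap and were off the fill value on at least 1 array of both groups. Up to 5 called and 3 other members of each list with the largest differences, and 8 ligand and receptor pairs, were also named by rule. Other list members were named after their values were seen. Replicate numbers did not pair the samples: deviations of same-numbered arrays correlated at 0.076, -0.041 and 0.018. Alternatives changed normalisation, filters, probe choice, moderation, weights, the replicate block, the arrays fitted, and left out each array in turn.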

Additional observations from a re-analysis of the deposited data

How the results depend on the processing

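Of 2918 called genes, 1604 (55.0%) were also called in every one of 18 alternatives that kept them. Calls ran from 2235, with 1 array left out, to 4661 with array weights. The count of lower genes (1144) moved by over 1.5 times in 6 settings: 651 with medians aligned, 756 with the deposited values, 1742 with normalisation and fit of the 6 arrays, 1843 with a fit of the 6 arrays, 2199 with array weights, and 732 without marrow c-kit replicate 2. Leaving out each array gave 2235 to 2430 calls, 1453 to 1503 higher and 732 to 942 lower, with fewer samples in each fit. For the other settings the cause was not tested. The replicate block gave 2865 calls with all 16 arrays and 3398 with the 6 arrays, and the numbers share no pairing. The median of complement genes (0.04) became -0.07 with medians aligned, -0.24 with the deposited values, -0.14 with the 6 arrays normalised and fitted alone, -0.41 without heart Sca1 replicate 3, 1.03 without heart Sca1 replicate 1 and 1.13 with the lowest 30% of genes left out. The median of Hox genes (-0.20) became 0.02 when low values were set to the 30th percentile and 0.13 with the mean over probes. Of 159 called genes named by rule, 134 were called in every alternative. None of these 159 lost its sign in an alternative. Of 99 genes named by rule and not called, 59 were called in 1 or more alternatives. Gata2, for example, was called in 5 of 18 and Cdh5 in 4 of 18.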

Other observations

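Among called genes, 408 had several probes. All probes of a gene had the same sign for 354 of them (86.8%), and for 54 a probe had the opposite sign. At least 1 probe showed under 50% of the called difference for 154. On the marrow c-kit arrays 25 called genes stood at the fill value on all 3 replicates, and on the heart Sca1 arrays 8 did, so that the size of their difference is not known. Gzmb, a granule protease of killer cells and basophils, was one of the 8, at 487, 982 and 688 in marrow c-kit cells.

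Early genes other than those described above stood near the scanner limit in heart Sca1 cells, such as Egr1 at 65447, 65446 and 49242, against 1845, 7233 and 3720 in marrow c-kit cells (log2 difference 2.99 ± 0.54, adjusted p = 0.00121). The protease inhibitor gene Timp3 gave 65449, 65452 and 65154 in heart Sca1 cells, against 389, 3048 and 2421 in marrow c-kit cells (4.80 ± 0.61, adjusted p = 6.32e-05). Both were chosen after their values were seen.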
